A study of Mus musculus with 31 samples.

Results

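The genes described here are 10 targets of transforming growth factor-β (TGF-β) and bone morphogenetic protein (BMP) signaling, many of which feed back on the same pathways: *Smad7*, *Skil*, *Ski*, *Tgif1*, *Klf10*, *Bambi*, *Junb*, *Id1*, *Id2* and *Id3*. They were taken by symbol from the gene column of the count table, and all 10 symbols were found among its 39179 genes. All 10 also passed the filter on low counts in tumors, where 15919 genes were tested, and in cultures, where 12525 were tested.

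Ligands of the TGF-β family bind pairs of receptor kinases, which phosphorylate SMAD transcription factors. TGF-β and activins act mainly through SMAD2 and SMAD3, BMPs through SMAD1, SMAD5 and SMAD9, and both arms share SMAD4. Some of the first genes to respond encode inhibitors of the pathway, so a cell that receives a signal also limits it. In melanoma and its stroma, TGF-β is known for restraining immune cells and for shaping fibroblasts and vessels.

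The study treated mouse melanoma with the synthetic glucocorticoid (GC) clobetasol propionate. The melanoma line came from C57BL/6 mice with Nras LSL-G12D and Tyr::CreERT2 alleles, and it was used as parental cells or as a GR KO line, in which CRISPR targeted the GC receptor gene *Nr3c1*. Whole tumors grown intradermally in wild-type C57BL/6 mice formed 4 groups of 5 libraries each, and cultured cells formed 4 groups with 11 libraries in all. Libraries were made from 3′ ends of mRNA, so each transcript is read near its end and gene length adds little to a count.

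Parental control tumors and GR KO control tumors came from mice given control treatment. Parental GC tumors and GR KO GC tumors came from mice given 0.05% clobetasol ointment 3 times a week. The paper's methods name cetraben cream as the topical control, so drug and ointment base cannot be told apart in tumors. Parental cells were cultured with the solvent DMSO in 3 libraries and with clobetasol in 2, and GR KO cells with DMSO in 3 libraries and with clobetasol in 3. The labels give the dose in culture as 10 µM in the treatment field and as 1 µM in the library names, and the data cannot settle which holds. The paper's methods give 10 µM as the usual dose in culture. The labels give no age for the mice.

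The GR KO line is 1 single-cell clone, so deletion of the receptor and other features of that clone cannot be told apart. Host cells in GR KO tumors kept their own GC receptor. In bulk tumors, fewer cells of a type and less RNA per cell cannot be told apart.

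Levels are CPM, counts scaled to a common library size by the trimmed mean of M values (TMM), given as mean ± SD. Total counts ran from 15528066 to 26386770 in tumors and from 14441166 to 22463188 in cultures. A count of 3, the upper limit that a count of 0 allows, was worth 0.112 to 0.220 CPM in tumors and 0.136 to 0.207 CPM in cultures. A gene is said to have risen or fallen only where edgeR's quasi-likelihood test gave a Benjamini-Hochberg adjusted p under 0.05 with a linear fold change of at least 1.5. SE was worked back from that test, as the absolute log2 fold change divided by the square root of its F statistic.

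Several libraries stood apart. *Gm26924*, a non-coding gene that overlaps ribosomal RNA, took 11.6%, 8.97%, 6.57% and 16.3% of all counts in GR KO control tumors 1, 2, 3 and 5, and 0.248% in tumor 4 of that group. It also took 6.65% in GR KO GC tumor 4 and 5.55% in parental control tumor 1, and 0.439% to 2.89% in the remaining 13 tumors. The level of transcripts rich in guanine and cytosine (G+C), taken as the median log2 shift of the 10% of genes with the highest G+C content, was 0.28, 0.27, 0.22 and 0.13 in GR KO control tumors 1, 2, 3 and 5 and -0.06 in tumor 4. It was also high in parental GC tumor 4 (0.19) and GR KO GC tumor 4 (0.14). The other GR KO GC tumors, 1, 2, 3 and 5, were at -0.21, -0.01, -0.20 and -0.13, parental control tumors ran from -0.16 to 0.04, and the other parental GC tumors from -0.19 to 0.06. Mitochondrial genes took 0.587% to 1.15% of counts in GR KO control tumors, less than in every tumor of the other groups (1.25% to 2.47% in parental control, 1.33% to 2.24% in parental GC and 1.48% to 1.99% in GR KO GC tumors). In cultures, parental DMSO culture 2 had the highest such level, 0.22, against -0.16 to 0.10 in the other 10.

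Markers were checked against the labels. *Tyr*, a defining gene of pigment cells, was at 0 in all 8 groups, and *Mitf* was the most abundant of the 8 melanocytic markers throughout. The summed level of these markers was 60.6 ± 10.6 CPM in parental control tumors and 11.5 ± 1.27 CPM in parental DMSO cultures, so the label of melanoma rests on the origin of the line more than on pigment genes. *Nr3c1* was still counted in GR KO cells, at 20.7 ± 4.24 CPM with DMSO against 32.9 ± 2.82 CPM in parental cells (n = 3 each). Counts from 3′ ends need not fall in the edited stretch.

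In parental tumors, where the question is how GC changed a tumor whose cancer cells and host both had the receptor, 9 of the 10 genes were lower with GC, and 1 of 10 fell by the test. That gene was *Klf10*, an early TGF-β target whose product is a zinc-finger transcription factor. Of all genes, 0.779% were called in this comparison. The median log2 fold change of the 10 genes was -0.87, against 0.00 over all genes tested. The 10 genes were chosen with earlier results of these data known. The paper had reported a TGF-β signaling gene set as lower with GC in parental tumors and higher in GR KO tumors. Directions, medians and shares of the 10 beside all genes, here and below, are therefore a description and not independent support. *Smad7*, *Skil* and *Klf10* were lower in every GC tumor than in every control tumor, which makes 3 of 10, and 1.71% of all genes were lower in this way. The count of 1 depended on the tool and model. DESeq2 called 4 of 10 (*Smad7*, *Skil*, *Tgif1* and *Klf10*), and the G+C-rich and equal-depth covariates each called 4 (*Skil*, *Tgif1*, *Klf10* and *Junb*), while calls among all genes went from 124 to 378, 421 and 526.

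*Klf10* (ENSMUSG00000037465, chromosome 15, bases 38291463 to 38300706 of GRCm38) stood at 18.5, 20.3, 29.9, 16.9 and 22.8 CPM in parental control tumors 1 to 5 and at 9.95, 7.85, 7.82, 8.72 and 9.23 CPM in parental GC tumors 1 to 5. The groups did not overlap, and control tumor 3 was the highest. *Klf10* fell by 1.32 on the log2 scale (SE 0.27, adjusted p = 0.0153), which is 2.49-fold. Without parental control tumor 3 the log2 change was -1.17 and the adjusted p 0.0755, in a range of 0.0227 to 0.0755 over the 10 libraries left out in turn, and the call was lost without that tumor alone.

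*Smad7* encodes an inhibitory SMAD that blocks access of receptor-activated SMADs to the receptor. It stood at 11.8, 8.35, 9.41, 10.1 and 13.3 CPM in parental control tumors and at 6.02, 5.02, 4.86, 3.99 and 4.79 CPM in parental GC tumors. All 5 GC tumors were below all 5 control tumors. The log2 fold change was -1.10 (SE 0.32, adjusted p = 0.111), which did not pass the test.

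*Skil* encodes SnoN, a corepressor that binds SMADs at target genes. It stood at 90.7, 87.9, 95.9, 82.0 and 107.2 CPM in parental control tumors and at 64.8, 54.9, 62.5, 53.5 and 64.7 CPM in parental GC tumors. The groups did not overlap, and their spread was small. The log2 fold change was -0.63 (SE 0.16, adjusted p = 0.0705), so the change was 1.54-fold and missed the test.

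The other corepressors differed from each other. *Ski*, which encodes the founding member of the SnoN family, was at 308.5 ± 39.1 CPM in parental control tumors and 252.0 ± 27.4 CPM with GC, and these groups overlapped. *Tgif1*, which encodes a homeodomain corepressor of SMAD2, was at 12.1, 20.4, 33.3, 23.2 and 67.5 CPM in control tumors and at 10.4, 6.49, 14.3, 2.61 and 11.3 CPM with GC. *Tgif1* overlapped only through control tumor 1, and its log2 fold change was -1.79 (SE 0.52, adjusted p = 0.112).

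*Junb*, an AP-1 gene induced by TGF-β and by many growth factors, was at 54.1, 90.7, 96.9, 117.0 and 195.2 CPM in parental control tumors and at 52.1, 13.8, 54.5, 9.41 and 44.7 CPM with GC. GC tumors 2 and 4 were the lowest, and a single pair of tumors overlapped. Its log2 fold change was -1.67 (SE 0.50, adjusted p = 0.124). *Bambi*, which encodes a pseudoreceptor without a kinase domain, was low, at 0.336 to 4.40 CPM (7 to 118 counts) in control tumors and 0 to 0.612 CPM (0 to 12 counts) with GC, and its adjusted p was 0.321.

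The *Id* genes are BMP targets whose products bind basic helix-loop-helix factors and keep them off DNA. *Id1* was at 43.6 ± 11.1 CPM with control treatment and 35.0 ± 19.2 CPM with GC, *Id2* at 175.0 ± 57.2 and 175.7 ± 43.6 CPM, and *Id3* at 34.3 to 117.4 and 17.2 to 71.3 CPM. All 3 overlapped between groups, with adjusted p values of 0.703, 0.994 and 0.457. None was called, which does not show that they were equal.

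**Figure D1:**
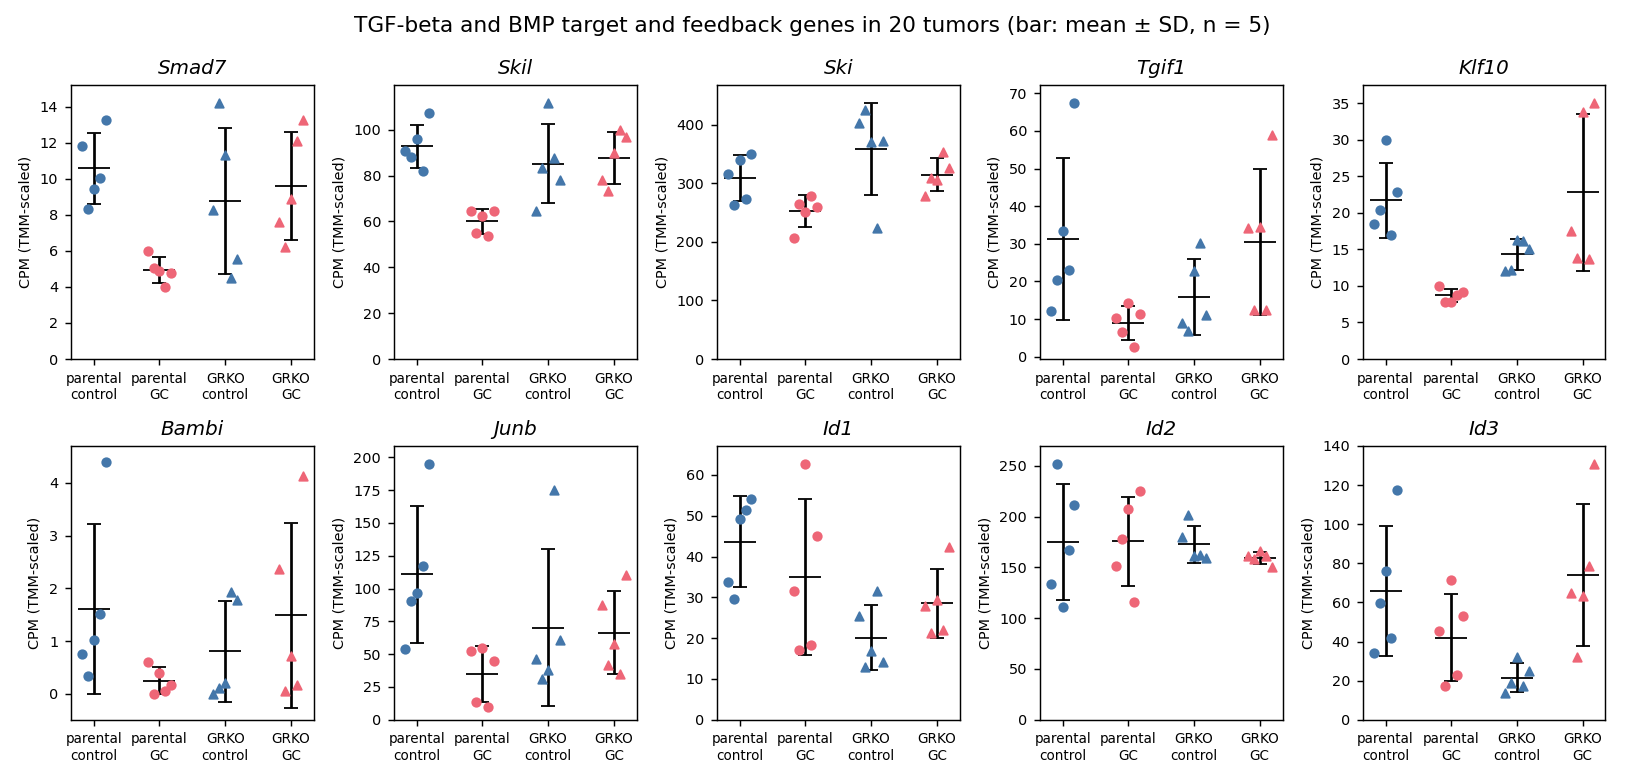
Level of each of the 10 genes in each of 20 tumors, in TMM-scaled CPM on a linear axis, with circles for parental and triangles for GR KO tumors, blue for control and red for GC; black bars are mean ± SD of 5 tumors. In parental tumors *Smad7*, *Skil* and *Klf10* lie lower in all 5 GC tumors than in all 5 control tumors, and in GR KO tumors the GC and control groups of each gene overlap.

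In GR KO tumors, where only host cells could respond through the receptor, 7 of the 10 genes were higher with GC and 1 of 10 rose by the test, against 6.42% of all genes called. That gene was *Id3*. The median log2 fold change of the 10 genes was 0.32, against 0.05 over all genes. The direction of the group depended on the level of G+C-rich transcripts. With that level as a covariate 5 of 10 were below 0, with a median of -0.04, against 0.01 over all genes. With library totals alone 0 of 10 were below 0, with a median of 0.58, but that scaling moves all genes alike and their median became 0.31. None of the 10 genes (0 of 10) separated the groups without overlap, and 5.08% of all genes did.

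*Id3* (ENSMUSG00000007872, chromosome 4, bases 136143497 to 136145755) stood at 13.6, 19.1, 32.3, 17.3 and 25.1 CPM in GR KO control tumors and at 64.9, 31.9, 63.3, 78.8 and 131.0 CPM in GR KO GC tumors. GC tumor 2 was just below control tumor 3, and the other 4 GC tumors were above every control tumor. *Id3* rose by 1.79 on the log2 scale (SE 0.39, adjusted p = 0.0105), or 3.45-fold, and it was called without each of the 10 libraries in turn. *Gm26924*, the level of G+C-rich transcripts and the mitochondrial share also differed between these groups, as the values above show. With the level of G+C-rich transcripts as a covariate the log2 fold change of *Id3* was 1.41 and the adjusted p 0.134. With the number of genes expected at equal depth as a covariate they were 1.51 and 0.114. Leaving out the 6 tumors with over 5% *Gm26924* left 1 GR KO control tumor, and the log2 fold change of *Id3* was then 2.07. Calls among all genes went from 1022 to 199 and 217 with these covariates. The G+C-rich covariate and the leaving out of tumors were chosen after seeing the data. The call was kept in 8 of 11 alternatives, where the fit with 1 GR KO control tumor counts as lost but says nothing on *Id3*. In the other alternatives the adjusted p ran from 0.000301 to 0.134.

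*Smad7*, *Skil* and *Klf10*, which stood lower with GC in parental tumors, overlapped between the GR KO groups. *Klf10* was at 12.1, 12.1, 16.3, 16.1 and 15.1 CPM in GR KO control tumors and at 17.6, 13.9, 33.9, 13.7 and 35.1 CPM in GR KO GC tumors. GC tumors 3 and 5 were the highest, and the groups overlapped. Its log2 fold change was 0.67 (SE 0.27, adjusted p = 0.125). *Smad7* was at 8.28, 14.2, 11.3, 4.52 and 5.53 CPM in GR KO control tumors and at 7.58, 6.20, 8.86, 12.1 and 13.3 CPM with GC, and *Skil* at 85.1 ± 17.2 and 87.7 ± 11.5 CPM. Neither was called, with adjusted p values of 0.834 and 0.903.

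The remaining 6 genes also overlapped between the GR KO groups. *Ski* was at 358.7 ± 78.5 CPM with control treatment and 314.3 ± 28.1 CPM with GC, *Tgif1* at 15.9 ± 10.1 and 30.5 ± 19.4 CPM, and *Junb* at 70.2 ± 59.6 and 66.5 ± 32.0 CPM. *Id1* was at 20.2 ± 7.96 and 28.5 ± 8.44 CPM, and *Id2* at 172.8 ± 18.2 and 159.4 ± 5.94 CPM. *Junb* in GR KO control tumor 4 reached 175.0 CPM, whereas the other 4 tumors of that group had 31.1 to 60.7 CPM. *Bambi* ran from 0 to 1.93 CPM with control treatment and from 0.0539 to 4.13 CPM with GC.

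**Figure D2:**
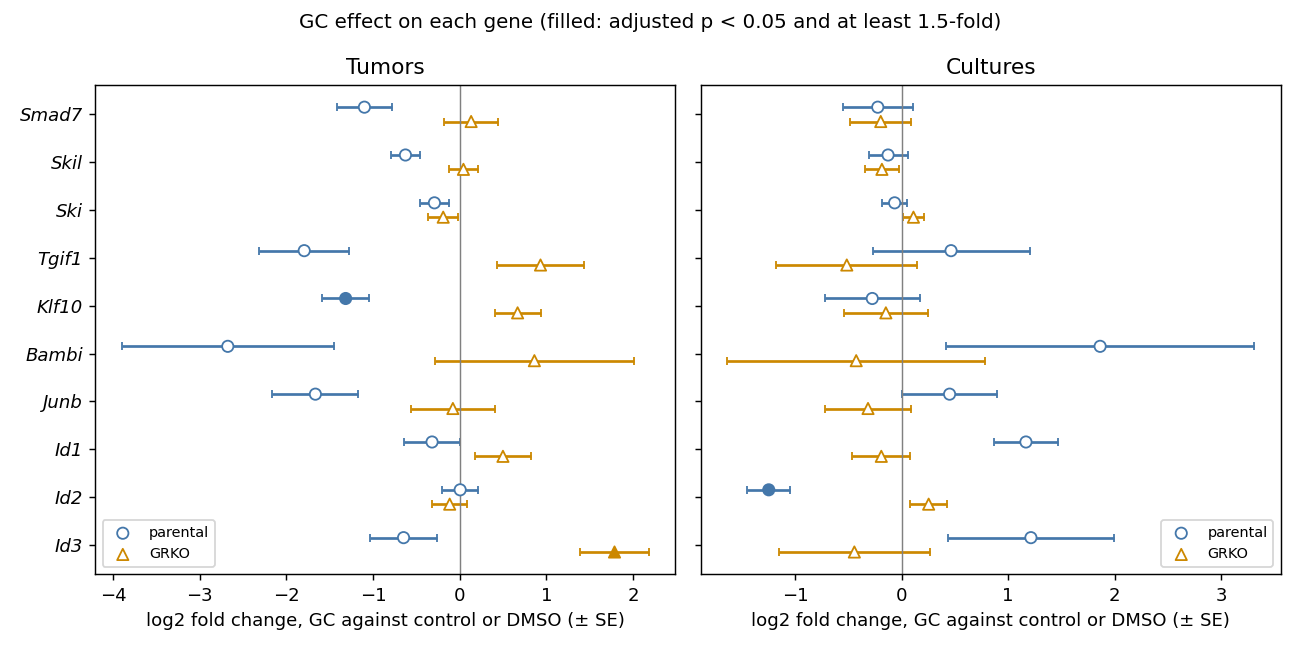
Log2 fold change of each gene with GC against control treatment in tumors (left) and against DMSO in cultures (right), with circles for parental and triangles for GR KO, bars for 1 SE, and filled symbols for genes that passed the test. *Klf10* in parental tumors (-1.32), *Id3* in GR KO tumors (1.79) and *Id2* in parental cultures (-1.25) are the filled symbols.

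The direct test of whether GC acted differently in parental and GR KO tumors called 1 of the 10 genes, *Klf10*, against 0.195% of all genes. The GC effect on *Klf10* was lower in parental than in GR KO tumors by a log2 difference of -1.98 (SE 0.38, adjusted p = 0.0330). The call was lost when any of 11 of the 20 tumors was left out, namely parental control tumors 1, 3 and 5, parental GC tumors 2, 4 and 5, GR KO control tumors 1 and 2, and GR KO GC tumors 1, 3 and 5, with log2 differences of -2.06 to -1.77 and adjusted p values of 0.0510 to 0.0886. It was kept in 7 of 10 alternatives and lost with the G+C-rich covariate (-1.71, adjusted p = 0.183) and the equal-depth covariate (-1.75, adjusted p = 0.0840), where calls among all genes went from 31 to 1 and 15. Leaving out the tumors with over 5% *Gm26924* left 1 GR KO control tumor and called 0 of 15513 genes, so its lost call says nothing on *Klf10*. The adjusted p ran from 0.000406 to 0.540 over the alternatives. Whether library features or a loss of power ended the call was not tested.

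*Id3* and *Tgif1* had log2 differences of -2.43 (SE 0.55) and -2.73 (SE 0.72) with adjusted p values of 0.0589 and 0.0849. *Id3* was called in 4 of 10 alternatives (DESeq2, no filter, at least 10 counts, replicate block; adjusted p from 0.00245 to 0.646 over all 10) and *Tgif1* in 1, DESeq2 (0.00961 to 0.829). *Smad7* (-1.23, adjusted p = 0.141) and *Skil* (-0.67, adjusted p = 0.128) were not called, so a different GC effect on them in the lines is not shown. Without GR KO control tumor 4, *Id3* (-2.36), *Tgif1* (-3.09) and *Junb* (-2.26) passed as well. *Id3* also passed without parental GC tumor 3 (-2.70) or GR KO GC tumor 2 (-2.63). The median difference of the 10 genes was -1.41, against -0.04 over all genes, and 9 of 10 were below 0.

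GR KO and parental tumors were also set side by side under each treatment. These comparisons share their tumors with the GC comparisons, so they are not separate observations. With control treatment, 1 of 10 genes was called, against 2.25% of all genes. *Id3* was at 34.3, 59.5, 75.9, 41.9 and 117.4 CPM in parental control tumors, all above the 5 GR KO control tumors, and fell by 1.62 on the log2 scale in GR KO tumors (SE 0.39, adjusted p = 0.0331). *Klf10* did not overlap either, which makes 2 of 10 genes, both lower in GR KO tumors, against 3.92% of all genes in either direction. The *Id3* call was lost without parental control tumors 2, 3, 4 or 5 or GR KO control tumors 1, 2 or 5, with log2 values of -1.74 to -1.30 and adjusted p values of 0.0539 to 0.0918. *Id3* was called in 8 of 11 alternatives and lost with the G+C-rich covariate (-1.30, adjusted p = 0.249) and the equal-depth covariate (-1.35, adjusted p = 0.276), where calls among all genes went from 358 to 49 and 51. It was also lost without the tumors with over 5% *Gm26924*, a fit with 1 GR KO control tumor that called 0 of all genes and says nothing on *Id3*. The adjusted p ran from 0.00280 to 0.723 over the alternatives. *Gm26924* took 8.73 ± 5.96% of counts in GR KO control tumors and 2.14 ± 1.98% in parental control tumors, and the mitochondrial share did not overlap between them. The part of these features was not tested. Without GR KO control tumor 4, *Id1* was also called at a log2 fold change of -1.34, and with all tumors it stood at -1.11 (SE 0.33, adjusted p = 0.0708).

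Under GC, *Klf10* was higher in GR KO than in parental tumors by 1.39 on the log2 scale (SE 0.27, adjusted p = 0.0138), the 1 call among the 10 genes, against 0.634% of all genes. *Smad7*, *Skil* and *Klf10* were higher in all 5 GR KO GC tumors than in all 5 parental GC tumors, which makes 3 of 10, against 3.84% of all genes in either direction. *Smad7* had a log2 fold change of 0.96 (adjusted p = 0.205) and *Skil* of 0.55 (adjusted p = 0.146). Without GR KO GC tumor 3 the log2 fold change of *Klf10* was 1.20, without tumor 5 it was 1.17, and the adjusted p values of 0.0600 and 0.0630 ended the call.

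Other genes of the pathway gave a background for these changes. In parental tumors *Lrrc32*, which encodes GARP, a surface protein that holds latent TGF-β, fell from 60.9 ± 13.8 to 21.9 ± 5.40 CPM with GC (log2 fold change -1.48, adjusted p = 0.00491), and it was the 1 call among 14 genes of TGF-β ligands and latency. *Tgfb1* was at 41.4 ± 18.4 and 33.6 ± 13.4 CPM, *Tgfbr1* at 43.2 ± 6.99 and 40.0 ± 6.95 CPM, and *Tgfbr2* at 24.9 ± 3.69 and 29.3 ± 6.93 CPM, and none of these was called. The test called 0 of 13 TGF-β and BMP receptors, 0 of 7 *Smad* genes, 0 of 4 tested BMP ligands, 0 of 11 BMP antagonists, 0 of 14 further TGF-β targets and 0 of 4 tested further BMP targets. The further TGF-β targets had a median log2 fold change of -0.32. *Smad6*, the BMP-side inhibitory SMAD gene, was low, at 0.843 ± 0.401 and 0.727 ± 0.691 CPM.

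Among 17 immediate early genes, 1 fell in parental tumors, *Egr1* (log2 fold change -1.07, adjusted p = 0.0340), and 14 were below 0, with a median of -0.54. Known GC-response genes moved the other way. Of 8 such genes 6 rose, with *Tsc22d3* at a log2 fold change of 2.34, *Per1* at 2.19, *Mt1* at 1.81 and *Mt2* at 1.73. The test called 0 of 3 helix-loop-helix partners of Id proteins and 0 of 5 partners of the Ski corepressors.

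In GR KO tumors, 5 of the 8 GC-response genes rose with GC, among them *Fkbp5* at a log2 fold change of 2.03 and *Tsc22d3* at 1.77. *Lrrc32* was at 62.8 ± 20.1 and 61.6 ± 22.6 CPM, and the GC effect on it in parental tumors less that in GR KO tumors was -1.45 on the log2 scale with an adjusted p of 0.0820, which did not pass. Of the pathway lists, the test called 2 of 14 ligand and latency genes, 1 of 11 BMP antagonists, 2 of 14 further TGF-β targets, 1 of 17 immediate early genes, 0 of 13 receptors and 0 of 7 *Smad* genes, near the 6.42% of all genes. *Tgfb3*, a TGF-β ligand, rose by 1.18, *Bmper*, a BMP-binding protein gene, by 1.50 and *Snai2* by 0.93, whereas *Nrros* fell by 0.79, *Cdkn1a* by 0.88 and *Jund* by 1.08. Each of these was called, with adjusted p values of 0.0124 to 0.0432. *Tgfbr1* and *Tgfbr2* were not called.

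Levels of host cell markers were compared between control and GC tumors as well. The summed level of 5 endothelial markers, led by *Kdr*, was 64.5, 53.1, 46.6, 68.9 and 47.7 CPM in parental control tumors and 35.6, 19.4, 26.3, 35.9 and 34.5 CPM in parental GC tumors, with no overlap and with 0 of the 5 genes called. In GR KO tumors it was 95.1, 85.6, 104.3, 101.6 and 88.1 CPM with control treatment and 50.7, 52.7, 48.1, 43.2 and 49.7 CPM with GC, and *Kdr* alone fell. The sum of 6 fibroblast markers was 6402 to 7099 CPM in parental control tumors and 7359 to 10299 CPM in parental GC tumors, where 0 of 6 were called, 3 of 6 were below 0 and the median log2 fold change was -0.01, and 3533 to 6288 and 7121 to 11053 CPM in the GR KO groups, where 4 of 6 rose. The sum of 7 neutrophil markers was 782.1 ± 794.0 and 194.7 ± 80.9 CPM in parental tumors, where 2 of 7 fell, and 719.2 ± 372.2 and 260.3 ± 110.1 CPM in GR KO tumors, where 0 of 7 were called. Parental control tumor 5 carried much of its group's mean, at 2113 CPM against 170.0 to 823.2 CPM in the other 4. Macrophage markers, led by *C1qa*, summed to 4629 ± 661.2 and 6224 ± 2125 CPM in parental tumors and to 7113 ± 1367 and 5350.3 ± 1332 CPM in GR KO tumors. Of these 7 markers 0 were called in parental tumors, and 1, *Mrc1*, rose in GR KO tumors, where 3 of 7 were below 0 with a median log2 fold change of 0.03. No gene of these 4 lists was at 0 in a whole tumor group. Keratinocyte markers, led by *Krt14*, were higher in GR KO control tumors (2124 to 4729 CPM) than in GR KO GC tumors (1104 to 2005 CPM), where 2 of 6 rose and 2 fell. Their sum in parental tumors was 1433 to 3680 CPM with control treatment, highest in tumor 5, and 1477 to 1867 CPM with GC, with 0 of 6 called. Of 6 T cell markers 1, *Trac*, was at 0 in all tumors, and *Cd3d* fell with GC in GR KO tumors. Of 4 skeletal muscle markers 4 were below 0 with GC there, with a median of -0.72, and 1 fell. The sum of B cell markers was 8.49 ± 2.37 and 3.92 ± 2.17 CPM there, with 0 called. In parental tumors 1 of 4 skeletal muscle markers was below 0, with a median of 0.42. Of 6 tested melanocytic markers 4 were below 0 there, with a median of -0.99, while the sum of all 8 was 60.6 and 79.0 CPM. The part of these cells in the levels of the 10 genes was not tested.

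In cultures, which hold no host cells, parental cells treated with GC had 1 of 10 genes called, against 0.878% of all genes. That gene was *Id2* (ENSMUSG00000020644, chromosome 12, bases 25093799 to 25097140), which stood at 254.9, 289.8 and 301.8 CPM with DMSO and at 109.4 and 128.1 CPM with GC. Both GC cultures were well below all 3 DMSO cultures. *Id2* fell by 1.25 on the log2 scale (SE 0.20, adjusted p = 0.0135), or 2.38-fold. The call was lost without parental DMSO culture 3 (-1.20), GC culture 1 (-1.14) or GC culture 2 (-1.37), with adjusted p values of 0.0580 to 0.254. Leaving out a GC culture left 1, whose spread was assumed to be like that of the other groups.

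*Id1* went the other way in the same cultures. It stood at 35.1, 18.7 and 34.9 CPM with DMSO and at 78.1 and 54.8 CPM with GC, without overlap. Its log2 fold change was 1.17 (SE 0.30, adjusted p = 0.142), which did not pass. *Id1* and *Id2* make 2 of 10 genes without overlap, and 27.8% of all genes were separated in this comparison, so that count is near the background. *Id3* was at 110.0, 31.2 and 126.6 CPM with DMSO and at 301.3 and 113.0 CPM with GC, which overlapped.

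In GR KO cultures edgeR called 0 of 10 genes with GC, and it called 0 of all 12525 genes, a background of 0%. At an unadjusted p under 0.05 there were 0 of the 10 genes and 237 of all genes, and DESeq2 called 0 of the 10. *Id2* was at 180.1, 172.6 and 204.2 CPM with DMSO and at 160.4, 239.1 and 264.1 CPM with GC, and the groups overlapped. *Ski* was the 1 gene of 10 whose groups did not overlap, at 107.4 to 111.6 CPM with DMSO and 112.7 to 127.2 CPM with GC, and 7.55% of all genes were separated.

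The GC effect on *Id2* differed between parental and GR KO cultures by -1.502 on the log2 scale (SE 0.27, adjusted p = 0.0464), the 1 call of 10, against 0.295% of all genes. The call was lost without any 1 culture other than GR KO GC culture 1, with log2 differences of -1.62 to -1.35 and adjusted p values of 0.0747 to 0.340. In parental tumors, by contrast, *Id2* had a log2 fold change of 0.01 with GC. The difference between the effect in cultures and that in tumors was not tested.

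**Figure D3:**
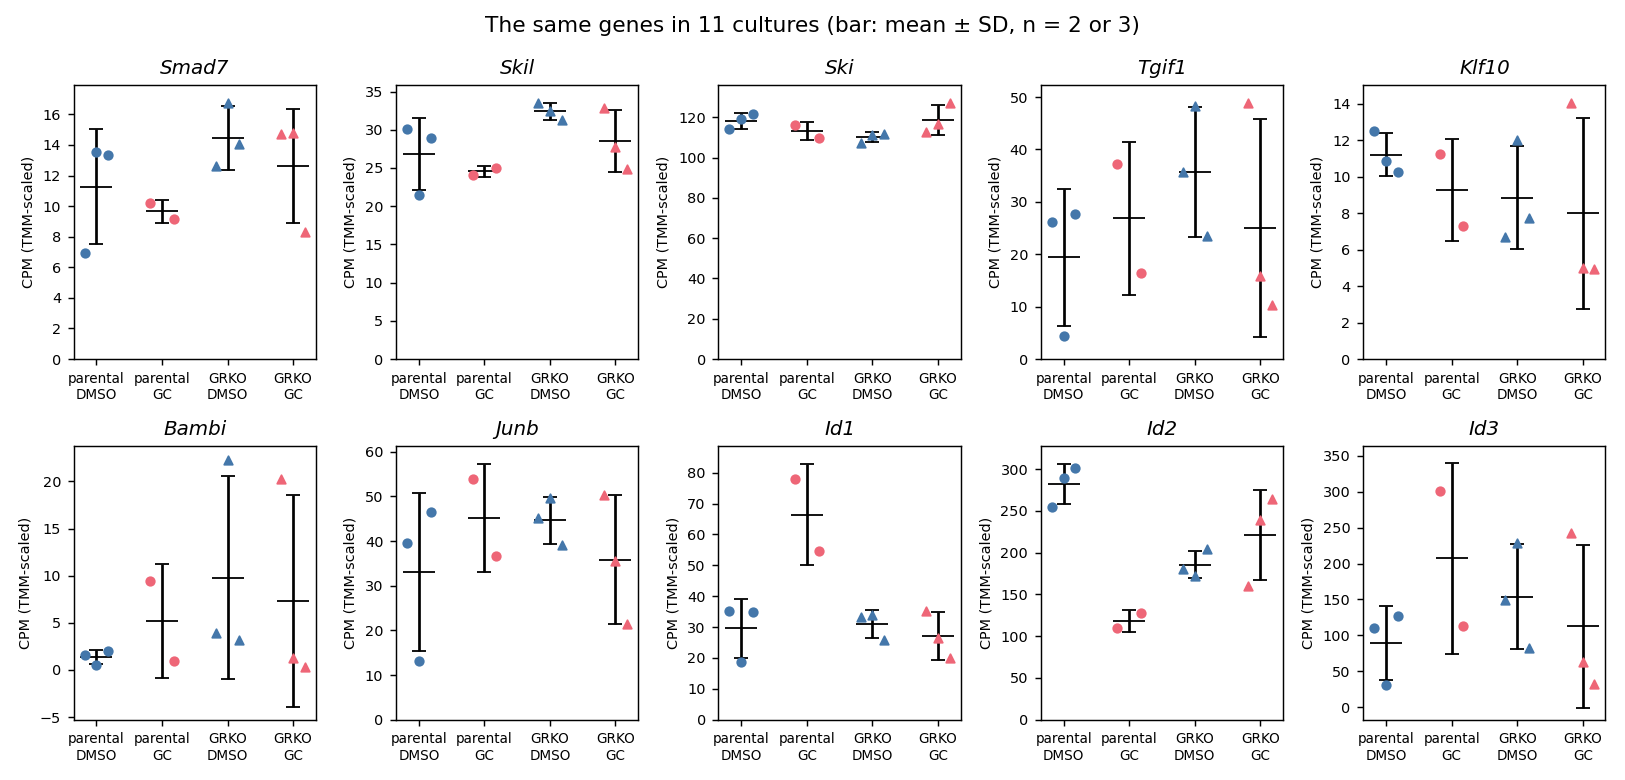
Level of each of the 10 genes in each of 11 cultures, in TMM-scaled CPM on a linear axis, with circles for parental and triangles for GR KO cells, blue for DMSO and red for GC; black bars are mean ± SD of 2 or 3 cultures. *Id2* is at 109.4 and 128.1 CPM in the parental GC cultures, below the other 9 cultures.

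Most of the remaining values overlapped between DMSO and GC in cultures. *Smad7* ran from 6.96 to 13.5 CPM with DMSO and from 9.13 to 10.2 CPM with GC in parental cells, and *Skil* from 21.5 to 30.1 and from 24.1 to 25.0 CPM. *Ski* ran from 114.0 to 121.5 and from 109.8 to 116.2 CPM, *Tgif1* from 4.37 to 27.7 and from 16.5 to 37.2 CPM, *Junb* from 13.2 to 46.5 and from 36.7 to 53.8 CPM, and *Bambi* from 0.554 to 2.06 and from 0.904 to 9.45 CPM. In GR KO cells with DMSO and with GC, *Smad7* ran from 12.6 to 16.8 and from 8.33 to 14.8 CPM, *Skil* from 31.3 to 33.5 and from 24.9 to 32.9 CPM, *Tgif1* from 23.4 to 48.3 and from 10.4 to 48.9 CPM, and *Junb* from 39.2 to 49.5 and from 21.5 to 50.4 CPM. Ranges were wide for *Bambi* (3.18 to 22.2 and 0.316 to 20.3 CPM) and *Id3* (82.6 to 229.2 and 32.6 to 242.8 CPM), and *Id1* was at 31.1 ± 4.46 and 27.2 ± 7.75 CPM. The values in this paragraph overlapped between DMSO and GC. *Klf10*, which fell in parental tumors, was at 11.2 ± 1.17 and 9.26 ± 2.81 CPM in parental cultures and at 8.83 ± 2.82 and 7.97 ± 5.25 CPM in GR KO cultures. Its log2 fold change was -0.28 in parental cultures (SE 0.45, adjusted p = 0.829), and the difference from its change in tumors was not tested.

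GR KO and parental cells were also compared with DMSO alone, where edgeR called 0 of 10 genes against 8.22% of all genes. *Id2* came nearest, with a log2 fold change of -0.60 (SE 0.17, adjusted p = 0.0539), and it was the 1 gene at an unadjusted p under 0.05 and the 1 gene that DESeq2 called. It was also called by edgeR without a filter, with the replicate block and in a fit of these groups alone (adjusted p from 0.0173 to 0.271 over 9 alternatives). With the G+C-rich covariate, chosen after seeing the data, *Id1* and *Id3* were called with their direction reversed, at -0.64 and -1.35 from 0.07 and 0.78, with adjusted p values of 0.0463 and 0.0151 (up to 0.917 and 0.583 in the other alternatives). *Skil* and *Bambi* were higher and *Ski* and *Id2* lower in GR KO cells without overlap, which makes 4 of 10, against 32.6% of all genes in either direction. *Bambi* stood at 3.95, 22.2 and 3.18 CPM in GR KO DMSO cultures and at 0.554 to 2.06 CPM in parental ones, and culture 2 carried most of its mean.

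Other genes of the pathway also differed between the lines with DMSO, and 8.22% of all genes did. *Lrrc32* was at 19.0 ± 5.11 CPM in parental cells and 2.51 ± 1.26 CPM in GR KO cells (log2 fold change -2.92, adjusted p = 0.000788), and *Tgfb1* and *Tgfb2* were lower by -1.02 and -1.09. *Inhbb* was the other of 4 calls among 12 tested ligand and latency genes. *Acvrl1* (-4.41) was the 1 call of 12 tested receptors and *Bmp2* (-3.71) the 1 call of 4 tested BMP ligands. Of 6 tested antagonists 3 were called, *Fst* (3.67) higher and *Fstl3* (-6.49) and *Dcn* (-7.72) lower, and of 12 tested further TGF-β targets 3, among them *Thbs1* (0.99) and *Tgfbi* (-2.48). With GC in parental cells, *Smad3* fell by 0.77, *Fstl3* rose by 1.50 and 7 of 7 tested GC-response genes rose. *Lrrc32* was at 5.38 ± 0.195 CPM with GC in these cells, lower without overlap than with DMSO, and its log2 fold change of -1.82 had an adjusted p of 0.0987. In GR KO cells edgeR called 0 of those 7.

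Tumors and cultures were set side by side in a joint fit of all 31 libraries, which compares whole tumors, host cells included, with cancer cells alone. Parental control tumors differed from parental DMSO cultures in 5 of 10 genes, against 46.7% of all genes, so this count is near the background. *Skil* (1.74), *Ski* (1.34), *Junb* (1.69) and *Klf10* (0.91) were higher in tumors and *Id2* (-0.73) lower, as log2 fold changes. GR KO control tumors differed from GR KO DMSO cultures also in 5 of 10, against 54.8% of all genes. There *Skil* (1.36) and *Ski* (1.66) were higher and *Id3* (-2.88), *Bambi* (-3.56) and *Smad7* (-0.77) lower in tumors.

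Some of these calls rested on 1 library or on the processing. *Smad7* in the GR KO comparison was called in 2 of 7 alternatives, with adjusted p values of 0.0119 to 0.0739, and *Klf10* in the parental comparison in 6 of 7, with 0.0147 to 0.0501. In the parental comparison *Klf10* was lost without parental control tumors 3 (0.80) or 5 (0.85) or DMSO cultures 1 (1.00), 2 (0.89) or 3 (0.85), *Junb* without tumor 5 (1.36) or culture 2 (1.31), and *Id2* without tumor 3 (-0.58). In the GR KO comparison *Bambi* was lost without DMSO culture 2 (-2.15). *Smad7* was lost there without control tumors 1 (-0.75), 4 (-0.63) or 5 (-0.64) or DMSO cultures 1 (-0.85), 2 (-0.67) or 3 (-0.80), and without control tumor 4 *Id1* (-0.92) and *Tgif1* (-1.61) passed. *Skil* and *Ski* passed in both comparisons without each of the 8 libraries in turn.

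Part of the spread within groups followed the level of G+C-rich transcripts. In a fit with this level and the groups, 5 of the 10 genes had a slope at an adjusted p under 0.05 in tumors, against 21.4% of all genes, and 6 of 10 in cultures, against 32.8% of all genes. With that level as a covariate the median log2 fold change of the 10 genes changed sign in all 4 comparisons of cultures, from 0.19 to -0.38 for GC in parental cells and from -0.19 to 0.07 for GC in GR KO cells. For GC in parental cells 5 of 10 were below 0 without it, and the filter of at least 10 counts also changed the sign, to -0.08 over 9 genes. In cultures the slopes were *Bambi* -2.29, *Id3* -1.20, *Tgif1* -1.09, *Junb* -0.63, *Klf10* -0.41 and *Id1* -0.40 on the log2 scale per 0.1 of that level. In tumors they were *Bambi* -1.09, *Junb* -0.55, *Tgif1* -0.45 and *Id1* -0.24, and *Ski* rose with it at 0.13. *Smad7*, *Skil* and *Id2* were in neither set. What sets this level was not tested.

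**Figure D4:**
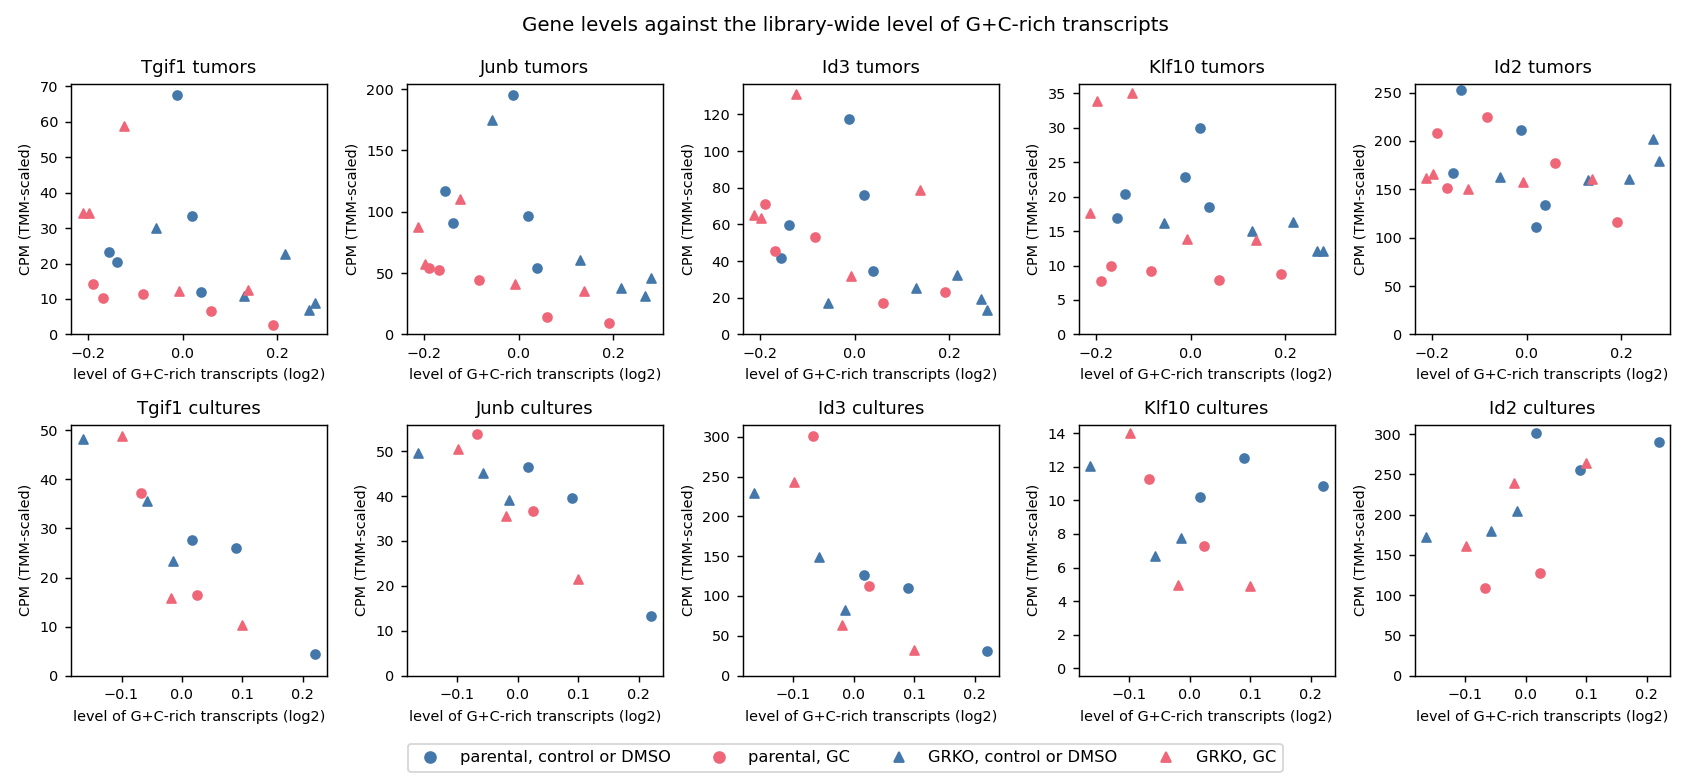
Level of 5 genes in TMM-scaled CPM against the library-wide level of G+C-rich transcripts (log2), with 20 tumors in the upper panels and 11 cultures in the lower ones; symbols and colors show line and treatment. *Tgif1*, *Junb* and *Id3* in cultures fall toward higher values of that level, and parental DMSO culture 2, at 0.22, is the lowest for *Tgif1*, *Junb* and *Id3*.

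The 10 genes were also compared with 10227 genes that had a mean of at least 5 CPM in tumors, by Pearson's r of log2 CPM over all 20 tumors, as a description without a test. The tumors share groups and the library features given above. *Skil* was most like *Lrrc32* (r = 0.918), which fell with GC in parental tumors. *Smad7* was most like *Ier5l* (0.866), *Pdpk1* (0.783) and *Skil* (0.774), and *Skil* was the 1 of these nearest genes that itself belongs to the 10. *Klf10* was most like *Irs1* (0.891), *Fam69a* (0.845) and *Gadd45a* (0.843).

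The others had partners outside the pathway lists. *Tgif1* was most like *Hes1* (0.946), *Junb* like *Tinagl1* (0.947), *Ski* like *Zfp703* (0.895) and *Bambi* like *Plin3* (0.871). *Id1* was most like *Dock6* (0.916), *Id2* like *Ube2d3* (0.796) and *Id3* like *Ndst1* (0.925). Of the 30 genes listed as the nearest 3 for each, 27 were listed again with a pseudocount of 0.1 in place of 1. *Plin3* was not listed again for *Bambi* (0.822), and *Sertad3*, which was, stood at 0.898.

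The 10 genes lie on chromosomes 2, 3, 4, 8, 12, 15, 17 and 18, with *Ski* and *Id3* both on 4 and *Smad7* and *Bambi* both on 18. *Junb* overlaps *Prdx2* on the other strand, and the strand setting of the deposited counts is not given. Promoters were available from RefSeq (GRCm38.p6) for 5 of the 10 genes, as 9 windows. In windows of equal length, the letters GGCGCC, searched on both strands as a BMP-type SMAD motif, were in 11.9% of 32851 promoters and in those of *Id2* and *Ski*. The letters CAGAC, a TGF-β-type SMAD motif, were in 49.6% of promoters and in those of *Id3* and *Tgif1*. TGANTCA, the AP-1 motif, was in 7.81% of promoters and in those of 0 of the 5 genes. A palindromic GC receptor motif of 15 letters was in 0.00913% of promoters, 3 in all, and also in those of 0 of the 5 genes. A match describes letters and is not a binding site.

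The promoter of *Id2* is shown because *Id2* was the gene called with GC in parental cultures, and it was chosen after its values were seen. The RefSeq start lies inside the gene's span. The printed stretch also lies inside the annotated gene, which spans bases 25093799 to 25097140, and not upstream of it. Only the stretch outside annotated exons is printed, 89 bases on the minus strand at chr12:25096254-25096342 of GRCm38.p6, with GGCGCC in capitals.
Id2: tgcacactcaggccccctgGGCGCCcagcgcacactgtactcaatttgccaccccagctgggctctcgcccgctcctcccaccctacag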

How the data were processed

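The authors deposited raw counts per gene for 31 libraries made with a 3′ mRNA kit, aligned to GRCm38 and assigned with the Ensembl 75 annotation. These counts were used as deposited, and groups were taken from the labels. Genes with at least 0.5 CPM in at least 3 libraries were kept. Tumors, cultures and both together were each fitted by group in edgeR 4.0.16 (R 4.3.3) with TMM scaling, the quasi-likelihood test and Benjamini-Hochberg adjustment over all genes tested. Called means 1.5-fold or more in either direction with an adjusted p below 0.05. DESeq2 1.42.0, other scalings and filters, a replicate block, covariates and leaving out each library were tried as alternatives. The G+C-rich covariate and the leaving out of tumors rich in *Gm26924* were chosen after the data were seen. The alternative without a minimum fold change reused the main fit, so it could not lose a call, and every tally of alternatives counts it. Fits that leave out 1 library are not in those tallies. Groups do not overlap where every library of one is above every library of the other. Intervals of counting alone, including the limit of 3 counts, leave out variation between animals. The fits were tested on simulated counts for GC in parental tumors and in parental cells, with 200 genes changed in each. There edgeR recovered 30% and 29% of changes of 1 on the log2 scale, and 80% and 79% of changes of 2. DESeq2 recovered 43% and 86% of them in both, with 28 and 24 false calls against 4 and 8 for edgeR. A 2-fold change was thus missed more often than called in these simulations. Replicates were not treated as pairs.

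All 10 genes were named in every group. Other genes were named from lists of receptors, *Smad* genes, ligands and latency genes, antagonists, further targets, immediate early genes, GC-response genes and partners. From each list no more than 4 called genes were named per comparison, and not every called gene was named. *Lrrc32*, *Tgfb1*, *Tgfbr1*, *Tgfbr2*, *Smad6* and *Nr3c1* were named as well, each in at least 1 comparison. For likeness, the 3 genes with the highest r were taken for each. The members and lists were chosen with earlier results of these data known.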

Additional observations from a re-analysis of the deposited data

Results flagged for a closer look

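The level of *Ski* in GR KO control tumors was lowest in tumor 4, at 224.4 CPM, whereas the other 4 had 369.9 to 424.3 CPM. On the scale of log2(CPM + 1), which was used to look for such libraries, its gap to the nearest tumor took 0.785 of the range of the group. On that scale 1 of 40 pairs of a gene and a tumor group had such a library. How many pairs chance would give was not tested. *Junb* in the same group was highest in tumor 4 in CPM, at 175.0 against 31.1 to 60.7 CPM, and was not picked out on the log2 scale. Tumor 4 also had the lowest share of *Gm26924* of its group, 0.248%, and the part of this in the level of *Ski* was not tested.

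The GC effect on *Klf10* differed between parental and GR KO tumors by -1.98 on the log2 scale, in the test of the difference itself. The call was lost with the G+C-rich covariate, with the equal-depth covariate and without any 1 of 11 of the 20 tumors. The GC effect on *Id2* differed between parental and GR KO cultures by -1.502 in the same test. That call was kept in 8 of 8 alternatives and lost without any 1 of 10 of the 11 cultures.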

How the results depend on the processing

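Across other settings, 977 of 1019 log2 fold changes kept their status, called or not called. Most of these were not called in the main fit, so the 977 do not measure how stable the calls were. A call was lost in 15, gained in 25 and reversed in 2. Of the counts of called genes, 76 of 103 stayed within 1.5-fold, as did 158 of 160 mean levels (mean *Id2* moved with library totals alone). For GC in parental tumors, DESeq2 called 4 (*Smad7*, *Skil*, *Tgif1*, *Klf10*), and the covariates for G+C-rich transcripts and for genes expected at equal depth each called 4 (*Skil*, *Tgif1*, *Klf10*, *Junb*), while calls among all genes went from 124 to 378, 421 and 526. For GC in GR KO tumors, both covariates called 0 each (1022 to 199 and 217 of all genes). Leaving out tumors with over 5% *Gm26924* left 1 GR KO control tumor, so that fit says nothing on the calls. For the difference of these effects, DESeq2 called 3 (*Klf10*, *Id3*, *Tgif1*, with 31 to 817 of all genes). No filter, at least 10 counts in every library and the replicate block called 2 each (*Klf10*, *Id3*, with 49, 66 and 144 of all genes). Both covariates called 0 each (1 and 15 of all genes), and the *Gm26924* alternative again left 1 GR KO control tumor. Between control tumors DESeq2 called 2 (*Id1*, *Id3*), and both covariates and the *Gm26924* alternative 0 each (358 to 1004, 49, 51 and 0 of all genes). Between GC tumors DESeq2 and the equal-depth covariate called 2 each (*Klf10*, *Tgif1*; 101 to 289 and 362 of all genes). For GC in parental cultures DESeq2 and no filter called 2 each (*Id1*, *Id2*; 110 to 251 and 152 of all genes), and for GC in GR KO cultures every alternative called 0. Between DMSO cultures DESeq2, no filter, the replicate block and the fit of these groups alone called 1 each (*Id2*). The G+C-rich covariate called 2 there (1070 of all genes) and reversed both, *Id1* to -0.64 (adjusted p = 0.0463) and *Id3* to -1.35 (adjusted p = 0.0151), from 0.07 and 0.78. Of GR KO tumors against cultures, at least 10 counts in every library called 3 (*Skil*, *Ski*, *Id3*), and *Bambi* was not in that fit. DESeq2 size factors and no filter left out *Smad7* there (4 each), DESeq2 called *Klf10* and the replicate block *Tgif1* in its place (5 each), and no filter left out *Klf10* for parental tumors (4). Leaving out 1 library gave 0 to 1 calls for GC in parental tumors (0 without parental control tumor 3), 1 in GR KO tumors, 0 to 4 for their difference (4 without GR KO control tumor 4), 0 to 2 between control tumors, 0 to 1 between GC tumors, 0 to 1 for GC in parental cultures, 0 in GR KO cultures, 0 to 1 for their difference, 0 between DMSO cultures, and 3 to 5 and 3 to 6 for parental and GR KO tumors against cultures. *Klf10* was called in 11 of 11 alternatives for GC in parental tumors, with adjusted p values of 0.000378 to 0.0414, and *Id2* in 9 of 9 for GC in parental cultures. Both tallies hold the alternative without a minimum fold change, which could not lose a call, and leave out the fits without 1 library, where both calls could be lost.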
